A study of Mus musculus with 4 samples.

Results

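The genes described here are the D- and E-type cyclins, the kinase gene Cdk6 and the CDK inhibitor genes Cdkn1b, Cdkn2a, Cdkn2c and Cdkn2d, chosen by gene symbol. All 10 were found among the 55426 rows of the deposited table, 1 row each, and all 10 were among the 13931 tested genes, those averaging 1 FPKM or more across the libraries (FPKM is a fragment count per unit of transcript length and of sequencing depth). The samples were mouse retinal organoids at day 6, a culture model in which stem cell aggregates form eye-field and retinal progenitor tissue. All libraries came from a single line, a Mettl3 KO with the Rx:GFP reporter and Dox-inducible HA-METTL3, grown in the presence of AGN (0.1 µM). METTL3 is the enzyme that writes N6-methyladenosine on messenger RNA. The comparison was between 2 libraries labelled untreated and 2 libraries labelled as treated with doxycycline (Dox, 2 µg/ml for 6 days), so both groups carry the knockout and the inducible copy, and an effect of the drug itself cannot be told apart from one of METTL3. The titles add the abbreviation EV, which the labels do not explain, so the labels do not settle if Dox switched on METTL3 here. The labels give 1 batch date for all 4 libraries and speak of repeated library preparation, and nothing says that the libraries came from separate cultures, so p-values measure only the spread between these libraries.

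D-type cyclins bind CDK4 and CDK6 in G1 and start the phosphorylation of the retinoblastoma protein. E-type cyclins then bind CDK2, complete that step and drive entry into S phase through the E2F transcription factors. INK4 inhibitors (the Cdkn2 genes) bind CDK4 and CDK6 and keep D-type cyclins off them, whereas CIP/KIP inhibitors (the Cdkn1 genes) bind cyclin-CDK complexes and restrain mainly those of CDK2. In the developing retina progenitors express Ccnd1 at high level, and Cdkn1b and Cdkn1c take part in cell cycle exit.

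The Dox and untreated libraries were well separated by identity genes, with little difference in depth. A fit to the steps of the low values gave 31700000 to 34900000 fragments per library. Mettl3 stood at 40.33 and 37.98 FPKM untreated and at 45.2 and 46.37 FPKM with Dox, a difference that did not pass the test (limma adjusted p = 0.122). Its exons overlap those of Tox4 on the other strand, and the row does not separate transcripts of the knocked-out locus from those of the inducible copy, so it does not check the labels. The reporter row, eGFP, stood at 0.26 and 0.42 FPKM untreated and at 333.52 and 361.13 FPKM with Dox. Of the 6 retinal progenitor markers 5 rose with Dox, and Rax, the eye-field gene that the reporter is named for, went from 1.12 and 0.82 FPKM to 201.14 and 227.98 FPKM. Their summed level was 151.07 to 163.32 FPKM untreated and 790.22 to 917.92 FPKM with Dox, with Six6 at 0.01 FPKM in each untreated library. All 6 tested of 8 neuronal markers fell. Under the filter, Dcx lay lower with Dox and Isl1 overlapped (0.85 and 0.9 FPKM untreated, 0.88 and 1.07 FPKM with Dox). The sum of the 8 was 149.82 to 153.05 FPKM untreated and 83.08 to 87.12 FPKM with Dox. Most of it was Tubb3 (118.53 and 116.78 FPKM untreated, 75.76 and 79.83 FPKM with Dox). All 5 tested of 6 dorsal midline and diencephalon markers fell too (168.75 to 177 FPKM and 9.78 to 11.34 FPKM). Of 4 neural crest markers 3 fell (23.8 to 24.37 FPKM and 5.04 to 6.1 FPKM), all 3 tested of 4 pigment epithelium markers rose (2.22 to 2.31 FPKM and 60.59 to 61.23 FPKM), 1 of 6 pluripotency markers fell and 1 of 4 tested mesenchyme markers rose. Over all tested genes 4.44% were called higher and 4.87% lower. Sums cover all listed markers, tested or not. Some markers reached the filter only through the group where they were higher. Elavl3 and Neurod1 did so through the untreated libraries, and Six6 through the Dox libraries. These marker lists moved with the same contrast as the genes below, and their part in the results was not tested. In bulk RNA, fewer cells of a type and less RNA per cell cannot be told apart.

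With Dox, Ccnd2 and Cdk6 fell, Cdkn2a rose from a very low level, and the other 7 genes did not pass the test. Over all tested genes 9.31% were called at a limma adjusted p below 0.05 (4.44% higher, 4.87% lower), against 1 of the 10 genes higher and 2 lower. The gene called higher, Cdkn2a, reached the filter only through its Dox libraries (means of 0.565 FPKM untreated and 1.9 FPKM with Dox). Its call is therefore not independent of the filter. The groups did not overlap in 8 of the 10 genes, and did not overlap in 53.4% of all tested genes. The median log2 fold change of the 10 genes was 0.01, and that of all tested genes was -0.0042. Log2 fold changes here are of FPKM + 1, which understates the change of genes with low values.

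**Figure D1:**
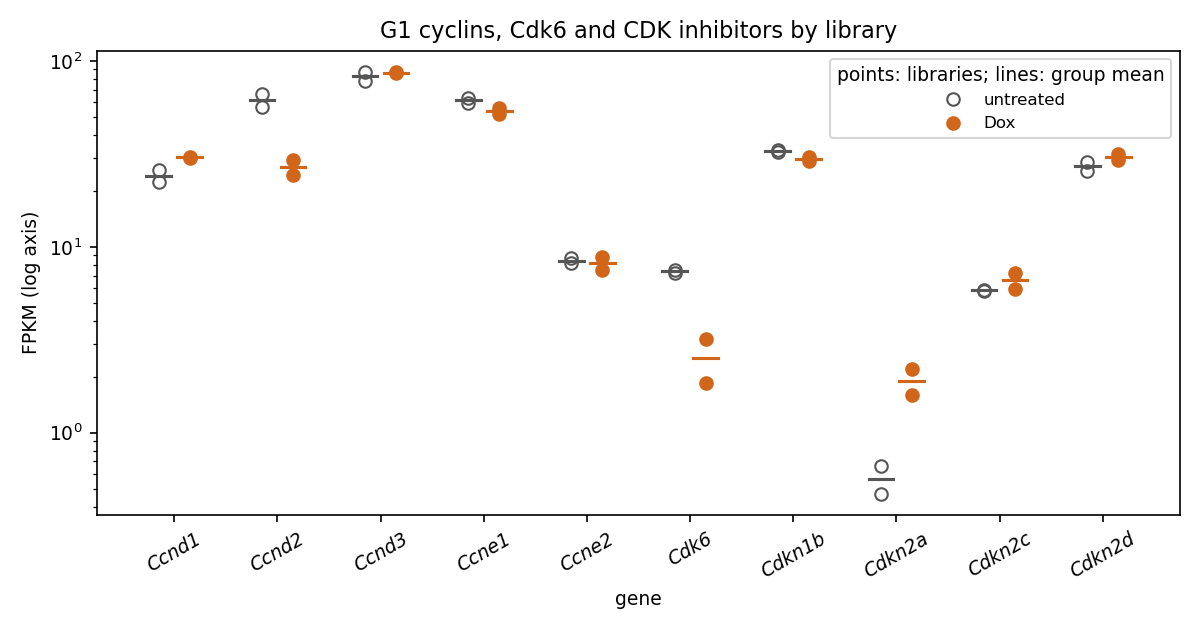
FPKM of each gene in each library (log axis), with open points for the 2 untreated and filled points for the 2 Dox libraries and lines at the group means. Ccnd2 and Cdk6 lie lower with Dox, Cdkn2a lies higher, and the points of Ccnd3 and Ccne2 overlap between the groups.

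Since FPKM is scaled to length, levels can be set side by side between genes. In the untreated libraries Ccnd3 was highest (82.8 ± 6.29 FPKM, SD, n = 2), followed by Ccne1 (61.5 ± 2.67 FPKM) and Ccnd2 (61.4 ± 7.18 FPKM), whose libraries overlapped. Then came Cdkn1b (32.8 ± 0.537 FPKM), Cdkn2d (27.1 ± 2.02 FPKM) and Ccnd1 (24.1 ± 2.64 FPKM), the last pair overlapping, and Ccne2 (8.43 ± 0.417 FPKM), Cdk6 (7.37 ± 0.24 FPKM) and Cdkn2c (5.82 ± 0.0919 FPKM). Cdkn2a was last at 0.565 ± 0.134 FPKM. With Dox, Ccnd3 (86.5 ± 1.03 FPKM) and Ccne1 (53.7 ± 2.66 FPKM) still led, while Cdkn2d (30.5 ± 1.59 FPKM), Ccnd1 (30.2 ± 0.24 FPKM), Cdkn1b (29.7 ± 0.884 FPKM) and Ccnd2 (26.7 ± 3.42 FPKM) formed a run in which each overlapped its neighbour. Below them stood Ccne2 (8.18 ± 0.94 FPKM), Cdkn2c (6.61 ± 0.912 FPKM), Cdk6 (2.52 ± 0.962 FPKM) and Cdkn2a (1.9 ± 0.438 FPKM), and only the last pair of these overlapped.

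Among the D-type cyclins Ccnd2 was the one that changed. Ccnd2 (ENSMUSG00000000184, chr6:127125162-127152193 on the minus strand, GRCm38), a D-type cyclin gene of neural progenitors, measured 66.43 and 56.28 FPKM untreated against 29.14 and 24.31 FPKM with Dox. Every Dox library lay below every untreated one, and the Dox mean was 56.4% lower (log2 fold change -1.17, SE 0.121, limma adjusted p = 0.00377). The call was lost when genes with low values were not filtered out (limma adjusted p = 0.0548). Ccnd2 shares exon sequence on the opposite strand with 9330179D12Rik (0.39 to 0.54 FPKM) and Gm43126 (0 to 0.69 FPKM).

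Ccnd1 (ENSMUSG00000070348), the D-type cyclin gene best known from retinal progenitors, was at 25.94 and 22.2 FPKM untreated and at 30.07 and 30.41 FPKM with Dox. The Dox libraries were both above the untreated ones, by 1.26-fold at the means, but the difference did not pass the test over all genes (log2 fold change 0.32, 95% interval 0.09 to 0.55, unadjusted p = 0.0154, limma adjusted p = 0.106). Ccnd3 (ENSMUSG00000034165), the third D-type cyclin gene, was at 87.29 and 78.39 FPKM untreated and at 87.23 and 85.78 FPKM with Dox. Its groups overlapped and the interval of its log2 fold change ran from -0.13 to 0.25 (limma adjusted p = 0.671). Exons of Ccnd1 overlap LTO1 on the opposite strand (9.55 to 13.56 FPKM) and those of Ccnd3 overlap Bysl (28.56 to 31.71 FPKM), so these values are uncertain if counting ignored strand.

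The make-up of the D-type cyclin transcripts shifted accordingly. Ccnd2 made up 37% and 35.9% of the summed FPKM of the 3 D-type cyclin genes in the untreated libraries, and 19.9% and 17.3% with Dox. The share of Ccnd1 went from 14.4% and 14.2% to 20.5% and 21.6%, and that of Ccnd3 from 48.6% and 50% to 59.6% and 61.1%. None of these shares overlapped between the groups, nor did the FPKM of 53.4% of all tested genes. The 3 shares are parts of a single sum and not independent, so a fall of Ccnd2 alone raises the others. The FPKM of Ccnd3 itself overlapped between the groups. The ratio of Ccnd1 to Ccnd2 was 0.39 and 0.394 untreated and 1.03 and 1.25 with Dox, so that Ccnd1 passed from the lowest of the 3 genes to a level above Ccnd2 in each Dox library. The summed level of the 3 genes was 179.66 and 156.87 FPKM untreated and 146.44 and 140.5 FPKM with Dox, 0.853 times as high at the means. With 2 libraries against 2 an exact two-sided permutation test cannot give a p below 0.333, so the shares and ratios are given without a test.

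**Figure D2:**
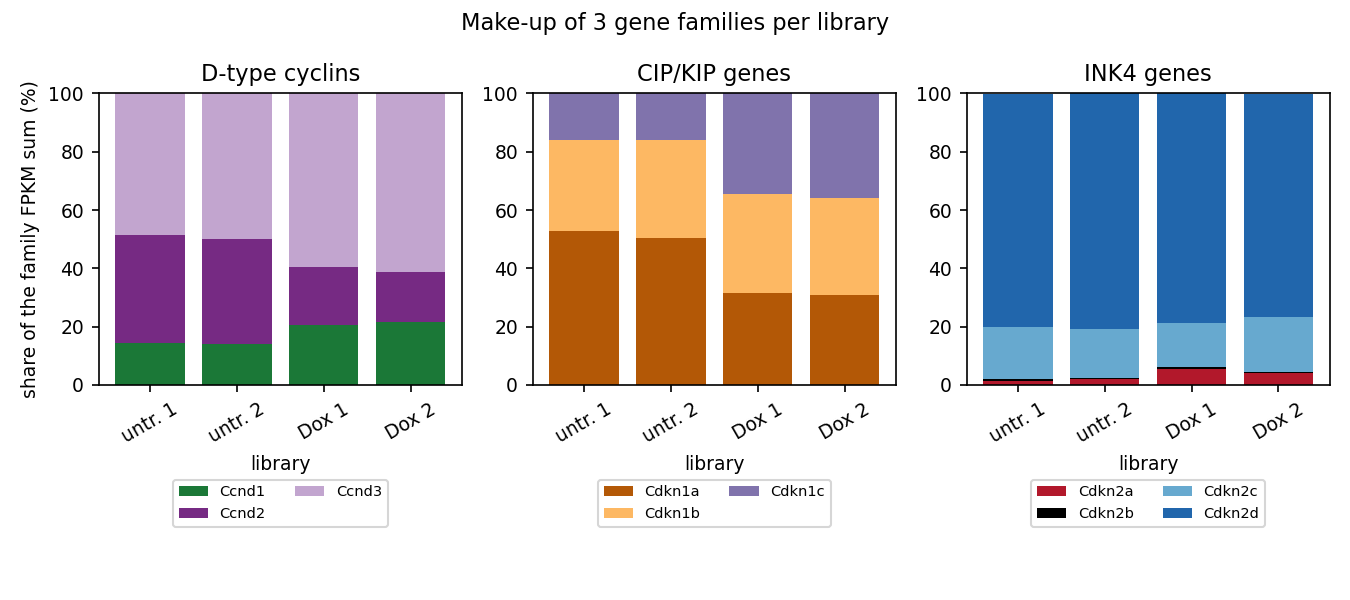
Share (%) of each gene in the FPKM sum of its family, per library, for D-type cyclins, CIP/KIP inhibitors and INK4 inhibitors. The INK4 bars count the whole Cdkn2a row, which does not separate the transcripts of that gene. The Ccnd2 band narrows from 37% and 35.9% to 19.9% and 17.3%, the Cdkn1a and Cdkn1c bands change places in size, and Cdkn2d fills most of every INK4 bar.

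Cdk6 was the other gene that fell. Cdk6 (ENSMUSG00000040274, chr5:3341485-3531008 on the plus strand, GRCm38) encodes a partner of the D-type cyclins and was at 7.54 and 7.2 FPKM untreated and at 1.84 and 3.2 FPKM with Dox. The Dox libraries lay below the untreated ones but apart from each other, and their mean was 65.8% lower (log2 fold change -1.28, SE 0.198, limma adjusted p = 0.0163). The call was lost without a filter on low values (limma adjusted p = 0.115), without untreated replicate 1 (0.0777) and without untreated replicate 2 (0.0771), and the fold change ran from -1.56 with a pseudocount of 0.1 to -0.72 with a pseudocount of 5. It was below that of Ccnd2 in the reported fit but above it with a pseudocount of 5 (Ccnd2 at -1.06) and without Dox replicate 1 (-0.99 for Cdk6 and -1.30 for Ccnd2). Its antisense neighbour Gm17590 was listed at 0 in all 4 libraries.

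Cdk4, which encodes the other kinase of the D-type cyclins, was far higher, at 812.92 and 785.86 FPKM untreated and at 806.6 and 750.66 FPKM with Dox (log2 fold change -0.04, 95% interval -0.26 to 0.18, limma adjusted p = 0.837), and its exons overlap Tspan31 on the opposite strand. Cdk6 was therefore 0.919% and 0.908% of the summed FPKM of this kinase pair in the untreated libraries, and 0.228% and 0.424% with Dox. The sum itself was 820.46 and 793.06 FPKM untreated and 808.44 and 753.86 FPKM with Dox, and overlapped between the groups. Cdk2, the partner kinase of the E-type cyclins, was at 45.76 and 47.23 FPKM untreated and at 51.7 and 53.35 FPKM with Dox and did not pass the test (log2 fold change 0.17, limma adjusted p = 0.183). The exons of Cdk2 overlap Pmel on the opposite strand, a pigment gene that rose from 1.2 FPKM in each untreated library to 39.27 and 39.93 FPKM with Dox, and the part of that overlap in the Cdk2 value was not tested.

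Neither E-type cyclin gene passed the test. Ccne1 (ENSMUSG00000002068), the more abundant of the pair, was at 59.58 and 63.35 FPKM untreated and at 55.57 and 51.81 FPKM with Dox. Its groups did not overlap, with a log2 fold change of -0.19 (95% interval -0.37 to -0.01, unadjusted p = 0.0417, limma adjusted p = 0.188). Ccne2 (ENSMUSG00000028212) was at 8.72 and 8.13 FPKM untreated and at 8.84 and 7.51 FPKM with Dox, with overlapping groups (log2 fold change -0.04, 95% interval -0.32 to 0.23, limma adjusted p = 0.86). Ccne1 made up 86.3% to 88.6% of the E-type cyclin FPKM in all 4 libraries. The exons of Ccne2 overlap Ints8 on the opposite strand (23.16 to 27.75 FPKM).

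**Figure D3:**
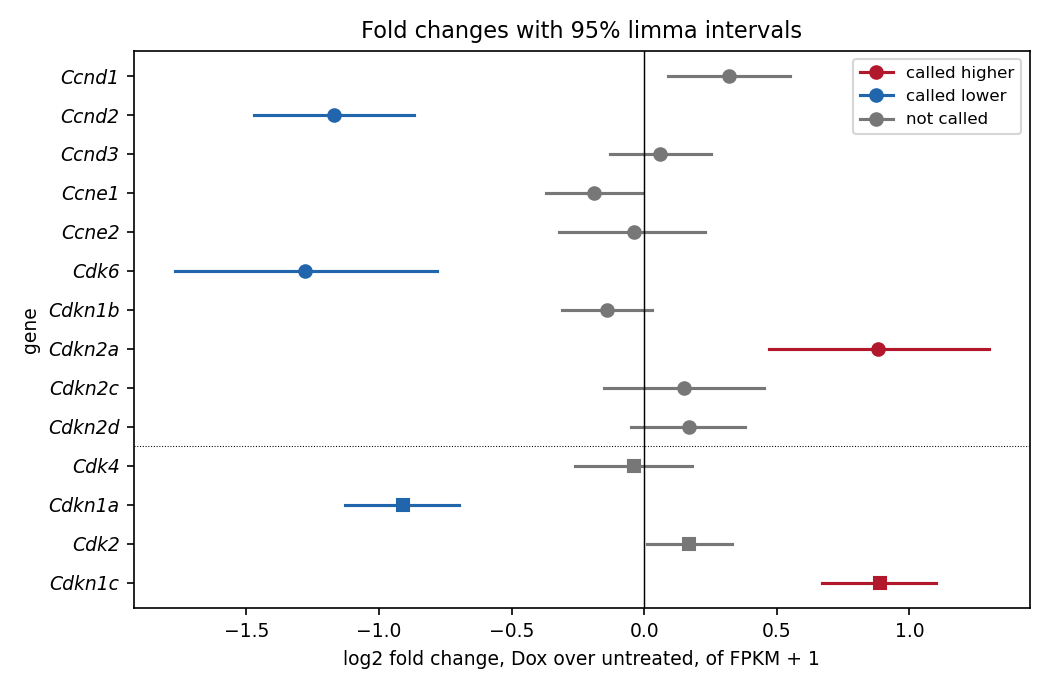
Log2 fold change of FPKM + 1, Dox over untreated, with 95% intervals from limma for the 10 genes (circles) and, below the dotted line, for Cdk4, Cdk2, Cdkn1a and Cdkn1c (squares). Ccnd2, Cdk6 and Cdkn1a were called lower, Cdkn2a and Cdkn1c were called higher, and the intervals of Ccnd3, Ccne2, Cdkn1b, Cdkn2c, Cdkn2d and Cdk4 span 0.

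Cdkn2a was the inhibitor gene among the 10 that was called, a call not independent of the filter and lost in several fits given below. The locus has a pair of promoters and first exons that join common downstream exons in different reading frames. The upstream one gives p19Arf, which stabilises p53 through MDM2, and the downstream one gives p16Ink4a, the INK4 inhibitor. The deposited table has a single row for both, so its value does not say which transcript was present. The 250 bases before each RefSeq start site (GRCm38.p6, minus strand, chr4:89294620-89294869 and chr4:89282193-89282442) are shown because the measured change belongs to either or both of these starts. Capitals mark E2F words (TTTCGCGC, TTTGGCGC, TTTCCCGC or TTTGCCGC) and GC boxes (GGGCGG), searched on both strands, where GC boxes are words bound by SP1.
Arf start: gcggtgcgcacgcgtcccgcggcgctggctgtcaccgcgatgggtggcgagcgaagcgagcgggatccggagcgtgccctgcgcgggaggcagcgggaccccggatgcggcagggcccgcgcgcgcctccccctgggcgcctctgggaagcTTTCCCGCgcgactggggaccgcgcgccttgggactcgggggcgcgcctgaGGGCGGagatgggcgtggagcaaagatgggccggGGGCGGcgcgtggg
Ink4a start: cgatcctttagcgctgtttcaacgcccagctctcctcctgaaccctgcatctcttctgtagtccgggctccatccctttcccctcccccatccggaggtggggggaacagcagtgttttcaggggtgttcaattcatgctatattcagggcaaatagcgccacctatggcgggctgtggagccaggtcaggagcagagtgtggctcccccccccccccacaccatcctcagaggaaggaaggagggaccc
The Arf window holds 1 E2F word, TTTCCCGC, with its first base 99 bases before the start, and 2 GC boxes, and 78.4% of its bases are G or C. The Ink4a window holds neither word, at 60% G or C. A RefSeq window was at hand for 7 of the 10 genes, 10 windows in all, of which the Arf window alone held an E2F word and 7 held a GC box. Over all 32851 windows of this length in the RefSeq table, 1.86% held an E2F word and 32.7% a GC box, and the median G and C content was 52.4%. A match is a description of the letters only.

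Cdkn2a (ENSMUSG00000044303, chr4:89274471-89294653) measured 0.47 and 0.66 FPKM untreated against 2.21 and 1.59 FPKM with Dox. Both Dox libraries were above both untreated ones, 3.36-fold at the means (log2 fold change of FPKM + 1 of 0.88, SE 0.167, limma adjusted p = 0.0321). Depending on which of its transcripts is taken for the length (852 or 895 nt), these values stand for about 9 or 10 and 14 or 15 fragments untreated, and 43 to 46 and 32 to 34 fragments with Dox. The call was lost without a filter on low values (limma adjusted p = 0.114) and in the 3 fits with a library left out that could test the gene, at 0.127 and 0.0812 without untreated replicate 1 or 2 and 0.0728 without Dox replicate 2, while without Dox replicate 1 its mean fell under 1 FPKM. The fold change ran from 0.31 with a pseudocount of 5 to 1.59 with a pseudocount of 0.1.

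The other INK4 genes did not pass the test. Cdkn2d (ENSMUSG00000096472), which encodes p19Ink4d, was at 25.7 and 28.56 FPKM untreated and at 31.66 and 29.41 FPKM with Dox (log2 fold change 0.17, 95% interval -0.05 to 0.38, limma adjusted p = 0.314). Cdkn2c (ENSMUSG00000028551), which encodes p18Ink4c, was at 5.76 and 5.89 FPKM untreated and at 5.96 and 7.25 FPKM with Dox (log2 fold change 0.15, 95% interval -0.15 to 0.45, limma adjusted p = 0.509). In both genes the Dox libraries lay above the untreated ones, by less in Cdkn2c than the Dox libraries lay apart. Cdkn2b, the neighbour of Cdkn2a, stood at 0.13 to 0.27 FPKM, about 5 to 10 fragments, and was under the filter. Cdkn2d made up 76.6% to 81% of the INK4 sum, and Cdkn2a 1.46% and 1.87% untreated and 5.51% and 4.14% with Dox. The Cdkn2a row counts p19Arf and p16Ink4a transcripts together, so its share is not that of p16Ink4a alone.

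Within the CIP/KIP family Cdkn1b stood beside a pair of genes that moved in opposite directions. Cdkn1b (ENSMUSG00000003031), which encodes p27Kip1, was at 33.16 and 32.4 FPKM untreated and at 29.06 and 30.31 FPKM with Dox. The Dox libraries were lower without overlap, by 9.44% at the means, and the difference did not pass the test (log2 fold change -0.14, 95% interval -0.31 to 0.03, limma adjusted p = 0.291). Cdkn1a, which encodes the p53-induced inhibitor p21, fell from 56 and 49 FPKM to 26.86 and 27.78 FPKM (log2 fold change -0.91, limma adjusted p = 0.00269). Cdkn1c, which encodes p57Kip2, rose from 16.9 and 15.62 FPKM to 29.4 and 32.52 FPKM (log2 fold change 0.89, limma adjusted p = 0.00304). In shares, Cdkn1a went from 52.8% and 50.5% of the family's FPKM to 31.5% and 30.7%, Cdkn1c from 15.9% and 16.1% to 34.5% and 35.9%, and Cdkn1b stayed between 31.3% and 34.1% in all 4 libraries. The summed level of the 3 genes was 106.06 and 97.02 FPKM untreated and 85.32 and 90.61 FPKM with Dox.

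Partner genes of the G1 network were called about as often as tested genes in general. Of the 97 genes found from 9 lists, 94 were tested, 3 were called higher and 6 lower, beside 9.31% of all tested genes called in either direction, and their median log2 fold change was -0.02. By limma 0 of the 8 genes that activate CDKs or phosphorylate them, 0 of the 8 pocket protein and DREAM genes, 0 of the 10 E2F and DP factor genes and 0 of the 14 genes for the turnover of G1 cyclins and p27 were called, with 2, 2, 1 and 0 genes at an unadjusted p below 0.05. Of 18 replication genes that E2F factors drive, only Tk1, the thymidine kinase of nucleotide salvage, was called, and the median of the list was -0.07. Tk1 fell from 160.63 and 169.16 FPKM to 129.77 and 121.07 FPKM (log2 fold change -0.39, limma adjusted p = 0.0284), a call kept in 7 of 14 other fits and lost without any single library (limma adjusted p of 0.0749 to 0.219). Its exons overlap those of Afmid. Of 12 G2 and mitosis genes 0 were called, with 2 at an unadjusted p below 0.05 and a median of -0.04. The sums of the latter lists were 1938.19 and 1985.85 FPKM untreated against 1929 and 1851.2 FPKM with Dox for replication, and 1298.11 and 1262.46 against 1249.89 and 1230.63 FPKM for G2 and mitosis. In both lists the Dox sums lay below the untreated ones. The FPKM totals of whole libraries also differed, at 821492 and 863027 untreated and 866239 and 793308 with Dox. The sums were not rescaled to these totals, so their order depends on library scale and is not a result about these lists.

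**Figure D4:**
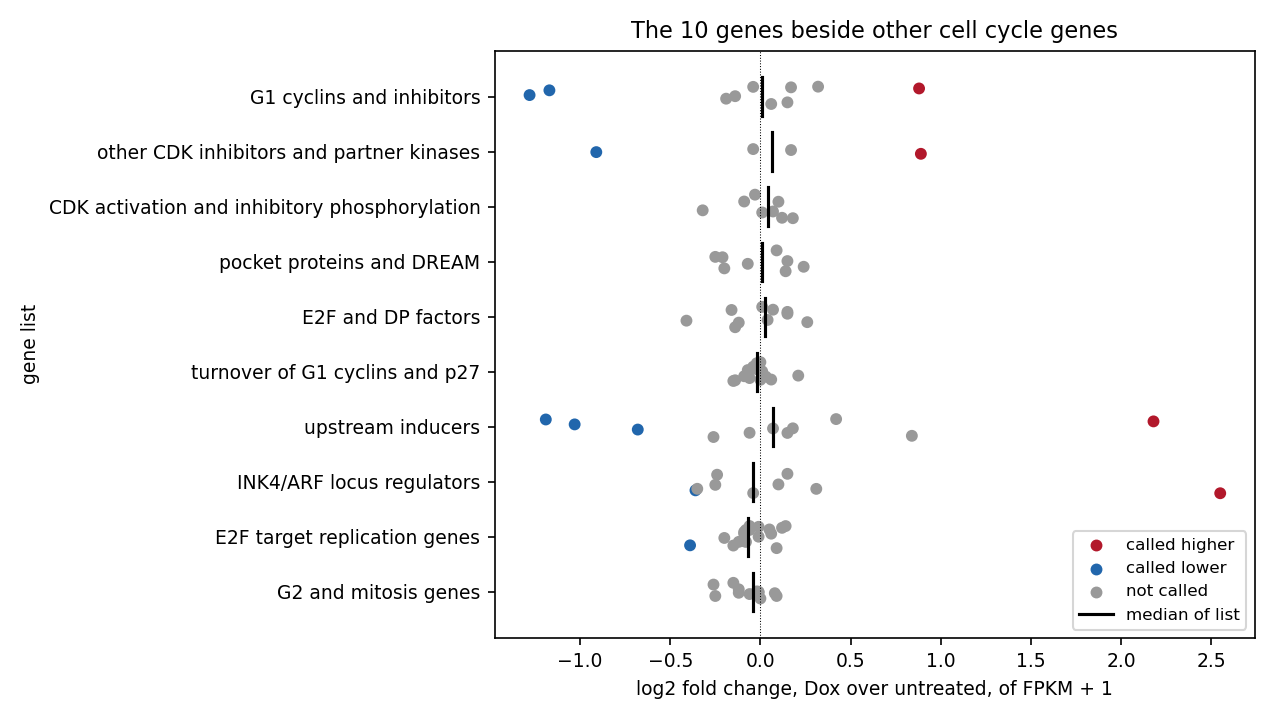
Log2 fold change of FPKM + 1, Dox over untreated, of each tested gene (points) with the median of each list (black lines), for the 10 genes and 9 lists of partner genes. The medians lie between -0.07 and 0.07, and the points farthest from 0 are Id1 and Myc (higher) and Cdk6, Mycn and Ccnd2 (lower).

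Of 11 tested upstream transcription factor genes 1 was called higher, 3 were called lower and 7 did not pass the test. The list was of factors upstream of G1 genes, and its median log2 fold change was 0.07. Without untreated replicate 2 the list had 3 genes called higher and 3 lower, and its median was -0.0979. The median was -0.0238 without untreated replicate 1, 0.262 without Dox replicate 1 and -0.0849 without Dox replicate 2, so its sign rested on single libraries. Myc rose from 2.86 and 2.77 FPKM to 14.45 and 18.35 FPKM (log2 fold change 2.18, limma adjusted p = 0.000634), while its relative Mycn, the form of neural progenitors, fell from 36.9 and 33.33 FPKM to 15.44 and 14.28 FPKM (log2 fold change -1.19, limma adjusted p = 0.00107). Mycl fell from 35.94 and 31.67 FPKM to 19.84 and 21.59 FPKM (log2 fold change -0.68, limma adjusted p = 0.0101). Lef1, a transcription factor of the Wnt pathway, fell from 8.83 and 7.89 FPKM to 3.31 and 3.86 FPKM (log2 fold change -1.03, limma adjusted p = 0.00533). The groups did not overlap in any of these 4 genes, which were named because they were called, nor in 53.4% of all tested genes. Without a filter on low values the calls of Mycl (limma adjusted p = 0.0672) and Lef1 (0.0524) were lost, and that of Mycl was also lost without untreated replicate 1 (0.064), Dox replicate 1 (0.076) or Dox replicate 2 (0.0604).

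Of 9 tested genes known to act on the Ink4/Arf locus or its products, 1 was called higher and 1 lower, beside 4.44% and 4.87% of all tested genes. Id1, a target of BMP signalling whose protein can repress the Ink4a start, rose from 39.09 and 36.41 FPKM to 215 and 237.46 FPKM (log2 fold change 2.55, limma adjusted p = 8.27e-05). Ring1, a Polycomb gene, fell from 25.14 and 26.66 FPKM to 19.47 and 20.48 FPKM (log2 fold change -0.36, limma adjusted p = 0.0445), a call kept in 6 of 14 other fits and lost without any single library (limma adjusted p of 0.135 to 0.269). The other Polycomb genes of the list (Bmi1, Ezh2, Cbx7, Cbx8 and Rnf2) did not pass the test, and Phf19 was under the filter.

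For Cdkn2a and Cdk6, which had the extreme fold changes in the reported fit, the genes with the closest profiles were found by the distance between mean-centred log2 values over the 4 libraries. Nearest to Cdk6 were Ncald (distance 0.168), Lrrc23 (0.171) and Oxct1 (0.225), with log2 fold changes of -1.31, -1.28 and -1.20. Nearest to Cdkn2a were Gng11 (0.0816), Mip (0.132) and Coch (0.134), with log2 fold changes of 0.96, 0.79 and 0.87. With 4 libraries such a distance reflects mainly the size of the difference between the groups.

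METTL3 methylates adenosines in the DRACH sequence context, of which GGACT is a frequent form. In the longest coding transcript of each gene (GENCODE M21), the 10 genes held 0 to 9 copies of GGACT on the sense strand. Cdk6 had 9 copies in 11525 nt, Ccnd2 had 6 in 6330 nt, and Cdkn2a and Cdkn2d had 0. Per kilobase the values were highest in Ccne1 (1.5) and Ccnd3 (1.42), and they were 0.948 in Ccnd2 and 0.781 in Cdk6. The median was 0.792 per kilobase over the 10 genes and 1.05 over the 11648 tested protein-coding genes, whose middle range between quartiles was 0.636 to 1.51. Methylation itself was not measured in these libraries, and a link between these words and the changes was not tested.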

How the data were processed

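RNA was poly(A)-selected and sequenced in 2 untreated and 2 Dox libraries. The authors deposited FPKM values, 1 column per library, rounded to 2 decimals. The submitters' processing notes name STAR, Cuffdiff and build mm10. Versions, annotation and the use of strand are not given in the sources used here. Values were transformed to log2(FPKM + 1), rows averaging under 1 FPKM were dropped, and limma 3.58.1 in R 4.3.3 (lmFit, eBayes with trend) was fitted to all 13931 tested genes on 4 libraries without covariates. P-values are two-sided, adjusted by Benjamini-Hochberg across these genes, with a threshold of 0.05. The prior had 3.5 degrees of freedom. The pipeline was tested on simulated data. It called 71% of 100 genes changed by a log2 of 1 and 95% of 100 changed by 2, with 7 false calls. The changed genes were drawn from those with higher levels, so recovery at low levels was not measured.

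Named are the 10 genes, all called genes of each partner list, and the kinases and remaining inhibitors. The 3 nearest profiles to the highest and lowest called gene are named too. Mettl3 and Rax were chosen as label checks, but the Mettl3 row could not check the labels. Genes and lists were chosen with earlier results of these data known. Depth was fitted from steps of low FPKM values in single-transcript genes (length correction 240 nt); 77.2% to 79.6% of these values were within a tolerance of 0.1 of whole fragments, against 10.1% to 11.8% at wrong depths. The fitted fragments gave the depth and the approximate fragment numbers of Cdkn2a and Cdkn2b, and entered no test. Positions, lengths and overlaps came from GENCODE M21 (GRCm38, the assembly of mm10), and promoter windows from RefSeq.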

Additional observations from a re-analysis of the deposited data

How the results depend on the processing

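The 2 libraries per group limit the precision, and each spread borrows from other genes in the limma fit. Without a filter on low values 336 genes were called higher and 409 lower, and the 3 calls among the 10 genes were lost: Ccnd2 (log2 fold change -1.17), Cdk6 (-1.28) and Cdkn2a (0.88), with limma adjusted p of 0.0548, 0.115 and 0.114. The cause was not tested. With a minimum mean of 5 FPKM, which tests fewer genes, 408 were higher and 413 lower, and Cdk6 and Cdkn2a were not tested. In the other 8 fits with all 4 libraries (pseudocounts of 0.1 and 5, rescaling to a common sum, median centring, quantile normalization, no trend, robust estimation and the replicate block) the 10 genes kept their direction and their side of the threshold. A fit with the replicate block called 532 genes higher and 602 lower and lost the calls of Ring1 and Tk1 (limma adjusted p = 0.102 and 0.0916). Replicate numbers did not pair the libraries by the correlation of replicate differences (-0.0435).

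Leaving out each library in turn, which assumes that a lone library varies like the other group, gave 265 to 332 genes higher and 341 to 370 lower. Log2 fold changes ranged from -1.30 to -1.04 for Ccnd2, which stayed called in all 4 fits, -1.56 to -0.99 for Cdk6 and 0.80 to 1.04 for Cdkn2a. They ranged from -0.013 to 0.14 for Ccnd3 (-0.0129 without untreated replicate 2) and from -0.15 to 0.063 for Ccne2 (0.0033 without untreated replicate 1 and 0.0629 without Dox replicate 2), which changed sign. Cdk4 changed sign with quantile normalization (0.0091) and without Dox replicate 2, in a range of -0.0904 to 0.0131 over the fits with a library left out. Medians of lists near 0 changed sign in some fits, as that of the pocket protein and DREAM genes did with a minimum mean of 5 FPKM (-0.0702, from 0.0101).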
